A study of Mus musculus with 4 samples.

Results

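The T cell receptor complex and its nearest partners were followed through 10 genes in RNA of Langerhans cells isolated from the ears of wild-type mice: the CD3 chains Cd3d, Cd3e and Cd3g, the zeta chain Cd247, the delta and gamma constant genes Trdc, Trgc1 and Trgc4, the kinase Lck, and the surface proteins Cd2 and Thy1. They were taken by symbol from a deposited table of 55487 genes, and each of the 10 symbols had 1 row. The study had 2 libraries of total RNA from ears treated with imiquimod, which activates a Toll-like receptor and is applied to mouse skin as a model of psoriasis, and 2 from ears treated with Vaseline. Dose, time, age and sex of the mice and the way the Langerhans cells were isolated are not given in the sources used here, and neither is whether libraries of one treatment are from different mice. The p-values therefore measure the spread between these libraries, which may be technical.

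A T cell receptor is a pair of chains that binds antigen and has almost no tail of its own in the cell. It signals through the CD3 gamma, delta and epsilon chains and the zeta chain, whose tyrosine motifs are phosphorylated by Lck. In mouse epidermis most T cells are dendritic epidermal T cells, which carry Thy1 and a nearly invariant gamma delta receptor built from the V segments Trgv5 and Trdv4. They lie between the keratinocytes beside the Langerhans cells. The dermis holds other gamma delta T cells with Trgv4 or Trgv6, which are a main source of IL-17 in mouse skin, and the series title names those with V gamma 4. None of the genes studied here is a defining gene of Langerhans cells. In bulk RNA, fewer T cells and less RNA per T cell cannot be told apart.

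Because the V segment names the kind of gamma delta T cell, the ends of 4 V exons are shown first. They are from the GENCODE M21 transcripts on GRCm38, plus strand, at chr13:19192576-19192725 for Trgv5, chr13:19190780-19190929 for Trgv6, chr13:19185357-19185506 for Trgv4 and chr14:54075366-54075515 for Trdv4. Capitals mark the codon of the conserved cysteine and the bases after it, up to the point where the segment is joined to the rest of the receptor gene.
Trgv5: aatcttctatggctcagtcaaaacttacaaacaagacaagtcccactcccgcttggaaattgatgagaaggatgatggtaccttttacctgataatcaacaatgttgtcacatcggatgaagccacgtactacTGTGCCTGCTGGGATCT
Trgv6: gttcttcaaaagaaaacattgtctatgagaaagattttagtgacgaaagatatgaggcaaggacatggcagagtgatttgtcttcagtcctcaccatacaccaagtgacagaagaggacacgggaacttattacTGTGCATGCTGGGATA
Trgv4: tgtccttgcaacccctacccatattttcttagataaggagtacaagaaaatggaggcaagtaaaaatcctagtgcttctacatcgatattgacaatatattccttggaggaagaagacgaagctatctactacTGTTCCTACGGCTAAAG
Trdv4: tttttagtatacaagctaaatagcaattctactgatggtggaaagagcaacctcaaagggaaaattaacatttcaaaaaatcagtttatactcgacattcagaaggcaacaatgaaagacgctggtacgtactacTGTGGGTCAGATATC

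The gamma constant genes are near copies of each other, which bears on how far reads of Trgc1 and Trgc4 can be told from those of their relatives. The first 120 bases of the first constant exon are given for each, from the same transcripts and in the direction of the gene, with capitals at bases that differ from Trgc1. Trgc1 lies at chr13:19214103-19214222, Trgc3 at chr13:19260885-19261004 and Trgc4 at chr13:19344558-19344677 on the plus strand, and Trgc2 at chr13:19307432-19307551 on the minus strand.
Trgc1: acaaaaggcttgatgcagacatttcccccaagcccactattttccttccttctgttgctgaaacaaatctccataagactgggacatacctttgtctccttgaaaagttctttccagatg
Trgc2: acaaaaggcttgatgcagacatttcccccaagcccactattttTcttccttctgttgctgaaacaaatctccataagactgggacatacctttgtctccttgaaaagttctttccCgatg
Trgc3: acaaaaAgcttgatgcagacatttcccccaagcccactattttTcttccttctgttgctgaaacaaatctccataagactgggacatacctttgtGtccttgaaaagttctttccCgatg
Trgc4: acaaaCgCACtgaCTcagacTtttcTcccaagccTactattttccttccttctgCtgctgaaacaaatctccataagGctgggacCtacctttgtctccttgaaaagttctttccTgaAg
Over the whole exon of 330 bases, identity to Trgc1 was 97.3% for Trgc2, 96.1% for Trgc3 and 82.1% for Trgc4. How reads that fit more than 1 gene were counted is not given in the sources used here, so the split between Trgc1 and Trgc2 or Trgc3 is uncertain.

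Library totals were 14902782 and 20690182 counts in imiquimod 1 and 2, against 41998172 and 76028955 in Vaseline 1 and 2. Levels below are CPM, counts scaled to library size, with TMM factors, which were 1.05 and 1.66 in the imiquimod libraries and 0.956 and 0.599 in the Vaseline libraries. A background of scattered reads was gauged by 1493 protein-coding olfactory and vomeronasal receptor genes, which are not known as genes of T cells or Langerhans cells. Their median was 0.533 and 1.29 CPM per exonic kilobase, without TMM factors, in imiquimod 1 and 2, against 0.378 and 0.0954 in Vaseline 1 and 2. Each fold change is the log2 ratio of imiquimod to Vaseline, given with its standard error (SE) and tested by the edgeR quasi-likelihood test with Benjamini-Hochberg adjustment over all 39439 genes tested. The Langerhans cell marker Cd207 stood at 1199 and 573 CPM in imiquimod 1 and 2, against 2250 and 6869 CPM in Vaseline 1 and 2, and the keratin Krt14 at 6488 and 1722, against 5548 and 7489 CPM.

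All 10 genes had counts in each library, though Trgc4 in imiquimod 2 was near the background, and all 10 had negative log2 fold changes, from -1.83 for Cd2 to -0.18 for Cd3d, but none passed the edgeR test. With edgeR 0 of 10 were called lower and 0 higher at an adjusted p under 0.05, where 0.137% of all genes tested were called lower and 0.0634% higher (0.2% in either direction). At an unadjusted p under 0.05, 2 of the 10 were lower and none higher, where 5.1% of all genes were lower and 8.63% higher. DESeq2 called 2 lower, Cd3g and Cd2, and gave no adjusted p for Cd3d, Trgc4 and Lck, which it could not call. Of all genes it gave an adjusted p, it called 8.25% lower. Among the 10 genes, limma-voom called 0. The median log2 fold change of the 10 was -0.82, beside 0.41 over all genes tested, of which 60.6% had a positive value. In 8 of the 10 the groups did not overlap and imiquimod was lower, as in 20.9% of all genes tested.

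**Figure D1:**
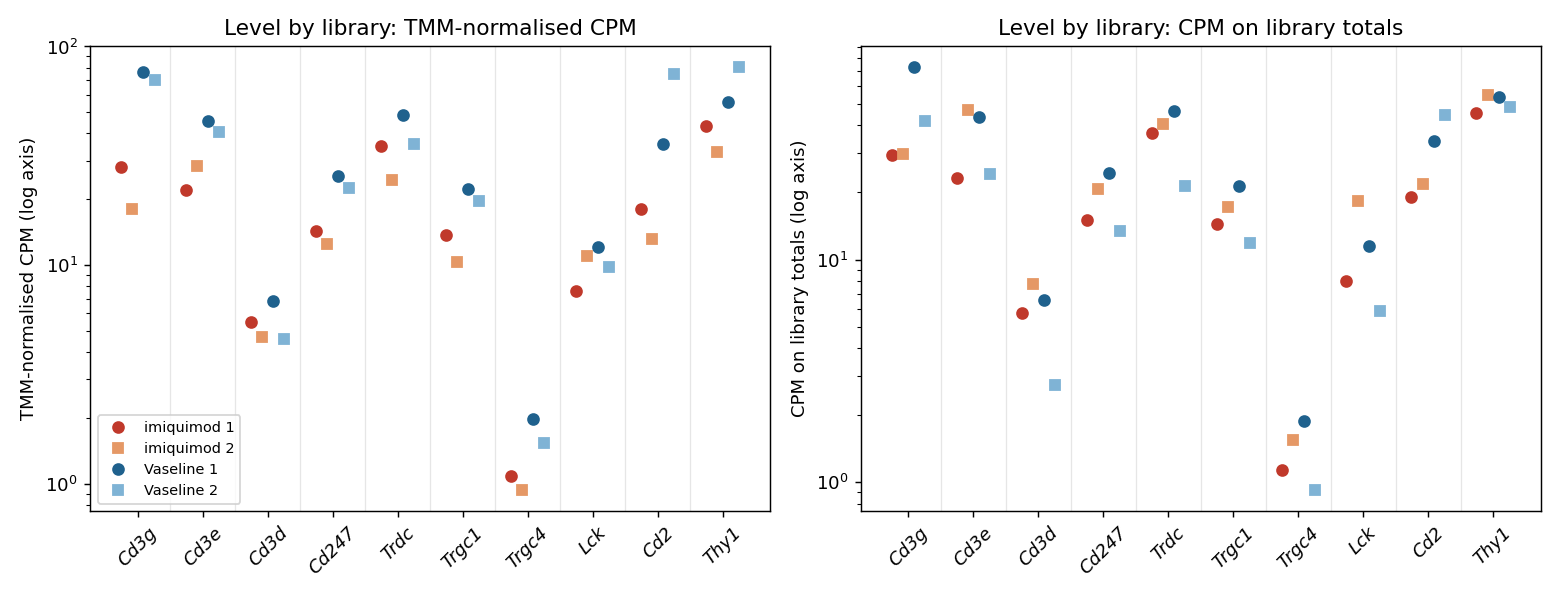
Level of each gene in each library, as TMM-normalised CPM on the left and as CPM on library totals on the right, both on log axes; each point is 1 library. On the left both imiquimod libraries lie below both Vaseline libraries in 8 of 10 genes, and on the right in 2 of 10, Cd3g and Cd2.

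Trdc, the delta constant gene (ENSMUSG00000104876; GRCm38 chromosome 14, 54142851 to 54148868), had 551 and 844 counts in imiquimod 1 and 2, against 1953 and 1631 in Vaseline 1 and 2. Scaled to depth this was 35.1 and 24.6 CPM with imiquimod, against 48.6 and 35.8 CPM with Vaseline. Imiquimod 1 lay just under Vaseline 2, so the groups parted by a margin smaller than the spread within either. The log2 fold change was -0.51 (SE 0.62, edgeR adjusted p = 0.639).

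Trgc1, the gamma constant gene joined to Trgv5 in dendritic epidermal T cells (ENSMUSG00000076749; chromosome 13, 19214103 to 19217024), had 216 and 355 counts with imiquimod, against 896 and 898 with Vaseline. Its levels were 13.8 and 10.3 CPM with imiquimod, against 22.3 and 19.7 CPM with Vaseline. The groups did not overlap, and the log2 fold change was -0.81 (SE 0.60, edgeR adjusted p = 0.471). Trgc4, the constant gene that the Trgv1 segment uses, had only 17 and 32 counts with imiquimod, against 79 and 70 with Vaseline. In imiquimod 1 and 2 it stood at 2.17 and 1.22 times the background, against 5.05 and 9.80 times in Vaseline 1 and 2. Trgc4 counts came to 7.87% and 9.01% of Trgc1 counts in the imiquimod libraries and 8.82% and 7.80% in the Vaseline libraries. Its log2 fold change of -0.82 had an SE of 0.88 (edgeR adjusted p = 0.596). The 2 remaining constant genes were also low: Trgc2 had 23 and 95 counts with imiquimod, against 61 and 94 with Vaseline, and Trgc3 had 0 and 49, against 47 and 24.

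Trgv5 and Trdv4, the V segments of the dendritic epidermal T cell receptor, held most Trgv and most Trdv counts in each library. The Trdv total leaves out V segments named for both alpha and delta (Trav-dv), so it is not the whole of the delta V segments. Trgv5 had 73 and 110 counts in imiquimod 1 and 2, against 233 and 339 in Vaseline 1 and 2. This was 64.6% (exact binomial 95% interval 55.0 to 73.4) and 57.3% (49.97 to 64.4) of all Trgv counts with imiquimod, against 72.1% (66.9 to 77.0) and 93.1% (90.0 to 95.5) with Vaseline. The lower shares belong to the libraries with the higher background, whose part in the difference was not tested. Intervals and detection limits cover counting error only, since reads copied by PCR and lacking molecular identifiers do not each stand for a molecule.

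Trdv4 had 251 and 759 counts with imiquimod, against 880 and 853 with Vaseline, which was 98.4% and 95.1% of all Trdv counts with imiquimod, against 97.7% and 100% with Vaseline. By level, Trdv4 stood at 71.1 and 64.1 times the background in the imiquimod libraries and 125 and 265 times in the Vaseline libraries. Its log2 fold change was -0.084 (SE 0.59) and that of Trgv5 -0.79 (SE 0.65), with edgeR adjusted p = 0.942 and 0.506. Relative to Trdc in the same library, the Trdv4 count was 0.456 and 0.899 with imiquimod, against 0.451 and 0.523 with Vaseline, so imiquimod 2 stood apart. Trgv5 relative to Trgc1 showed no such library, at 0.338 and 0.310 with imiquimod, against 0.260 and 0.378 with Vaseline.

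Trgv4, the segment of the V gamma 4 cells in the series title, had 9 counts in imiquimod 1 and 0 in imiquimod 2, Vaseline 1 and Vaseline 2. The background alone would give about 3.39 counts over its exons in imiquimod 1 and 11.4 in imiquimod 2. The count of 0 in imiquimod 2 allows a share of up to 1.56% of the 192 Trgv counts there, and those of Vaseline 1 and 2 allow up to 0.929% and 0.824%. Trgv6 had 5 and 26 counts with imiquimod, against 20 and 0 with Vaseline, where the background would give 3.37 and 11.3, against 6.73 and 3.08. Trgv3 reached 36 counts in imiquimod 2 against an expected 9.41, with 5 in imiquimod 1 and 6 and 0 in the Vaseline libraries. With counts this low, a change in V gamma 4 or V gamma 6 cells was not detectable from their V segments.

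**Figure D2:**
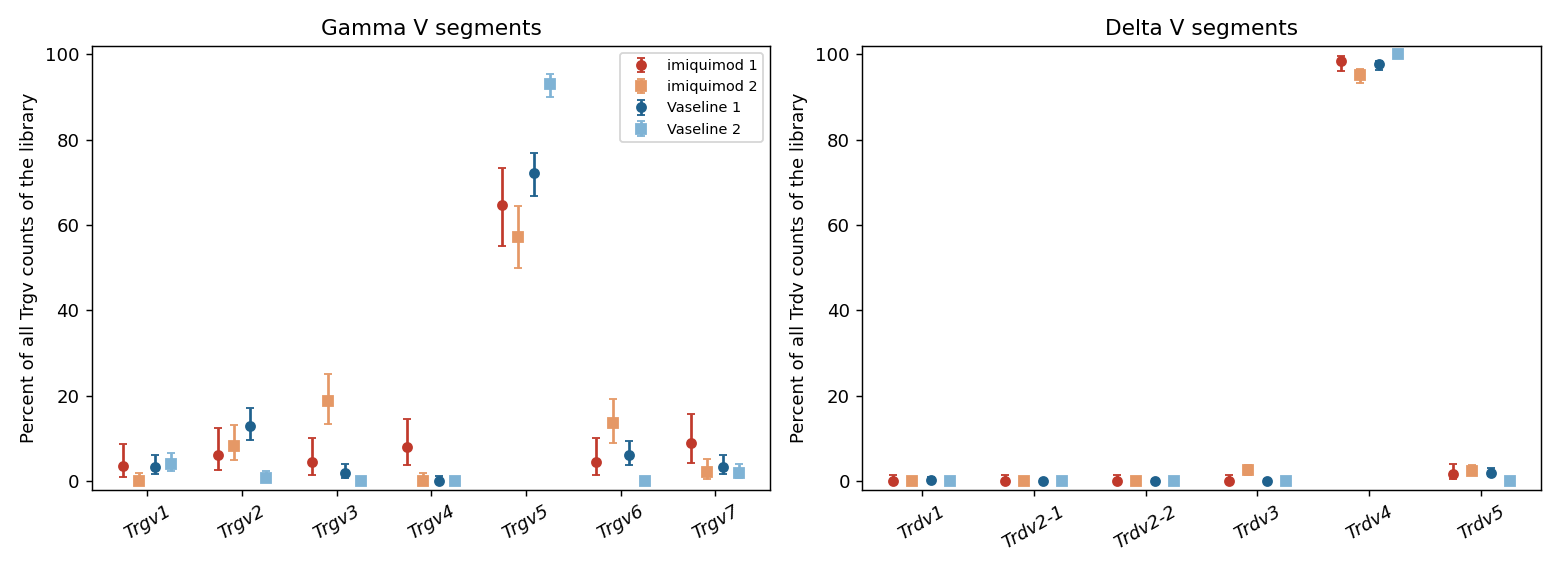
Share of each gamma V segment among all Trgv counts (left) and of each delta V segment among all Trdv counts (right) in each library, in percent with exact binomial 95% intervals. Trgv5 holds 57.3% to 93.1% of the Trgv counts and Trdv4 95.1% to 100% of the Trdv counts. The Trdv counts leave out V segments named for both alpha and delta (Trav-dv).

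Of the alpha beta receptor genes, Trac was far lower than the delta gene per length, and the sum of the beta constant genes was not. Trac, the alpha constant gene, had 19 and 37 counts with imiquimod, against 62 and 42 with Vaseline. Per exonic kilobase, Trdc counts were 7.02 and 5.52 times those of Trac in imiquimod 1 and 2, against 7.62 and 9.39 times in Vaseline 1 and 2. Trgc1 stood at 11.5 and 9.71 times Trac per exonic kilobase with imiquimod, against 14.6 and 21.6 times with Vaseline. Trdc was 0.831 and 0.729 times the sum of Trbc1 and Trbc2 per exonic kilobase with imiquimod, against 1.87 and 0.987 times with Vaseline. Against Trbc1 alone, Trgc1 stood at 2.11 and 2.82 times per exonic kilobase with imiquimod, against 6.16 and 4.23 times with Vaseline. With the background still in the counts, these ratios were all lower in each imiquimod library than in each Vaseline library. Background came to 7.95 and 26.6 counts per exonic kilobase in imiquimod 1 and 2, against 15.9 and 7.25 in Vaseline 1 and 2. In CPM it was higher in the imiquimod libraries. It weighs more on the few counts of Trac than on those of Trdc or Trgc1. Whether the order of the libraries holds with the background subtracted was not tested. Reads of Trbc1 and Trbc2, which are near copies, may be shared between them.

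Of the CD3 chains, Cd3g had the lowest log2 fold change, though differences between the chains were not tested. Cd3g, the gamma chain (ENSMUSG00000002033; chromosome 9, 44969572 to 44980431), had 440 and 619 counts with imiquimod, against 3071 and 3198 with Vaseline. Its levels were 28.1 and 18.0 CPM in imiquimod 1 and 2, against 76.5 and 70.2 CPM in Vaseline 1 and 2, with means of 23.0 ± 7.09 and 73.4 ± 4.41 CPM (SD, n = 2 each). The gap between the groups was wider than the spread within either. The log2 fold change was -1.68 (SE 0.66); by edgeR the unadjusted p was 0.0110 and the adjusted p 0.284, and by DESeq2 the log2 fold change was -1.94 and the adjusted p 0.0287.

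Cd3e, the epsilon chain (ENSMUSG00000032093; chromosome 9, 44998740 to 45009627), had 22.1 and 28.3 CPM with imiquimod, against 45.5 and 40.6 CPM with Vaseline. The groups did not overlap, with a log2 fold change of -0.77 (SE 0.62, edgeR adjusted p = 0.503). Cd3d, the delta chain, which is transcribed away from its neighbour Cd3g (chromosome 9, 44981786 to 44987339), had 5.48 and 4.69 CPM with imiquimod, against 6.85 and 4.57 CPM with Vaseline. These groups overlapped, and the log2 fold change was -0.18 (SE 0.63, edgeR adjusted p = 0.881). Cd247, the zeta chain, had 14.3 and 12.5 CPM with imiquimod, against 25.6 and 22.5 CPM with Vaseline, with a log2 fold change of -0.85 (SE 0.60, edgeR adjusted p = 0.458). Its values are uncertain, because exons of Pou2f1 and Gm16565 cover 60.3% of its exonic bases and the strand setting of the counting is not stated.

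Ratios within a library do not depend on the scaling between libraries. The Cd3g count was 1.27 and 0.636 times the Cd3e count in imiquimod 1 and 2, against 1.68 and 1.73 times in Vaseline 1 and 2. Against Cd3d, it was 5.12 and 3.84 times with imiquimod and 11.2 and 15.4 times with Vaseline. Both ratios were lower in each imiquimod library than in each Vaseline library. For Cd3g over Cd3e, however, imiquimod 1 and 2 lay further apart than imiquimod 1 and Vaseline 1. Cd3d relative to Cd3e went the other way, at 0.248 and 0.165 with imiquimod, against 0.150 and 0.113 with Vaseline. With the expected background subtracted from both counts, a step added after seeing the data, Cd3d over Cd3e was 0.228 and 0.130 with imiquimod, against 0.140 and 0.107 with Vaseline, and the groups overlapped. The same subtraction left Cd3g lower in each imiquimod library, at 1.32 and 0.615 times Cd3e with imiquimod, against 1.71 and 1.75 times with Vaseline. The delta to gamma constant ratio, Trdc over Trgc1, was 2.55 and 2.38 with imiquimod, against 2.18 and 1.82 with Vaseline. With 2 libraries against 2 these ratios are given without a test.

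**Figure D3:**
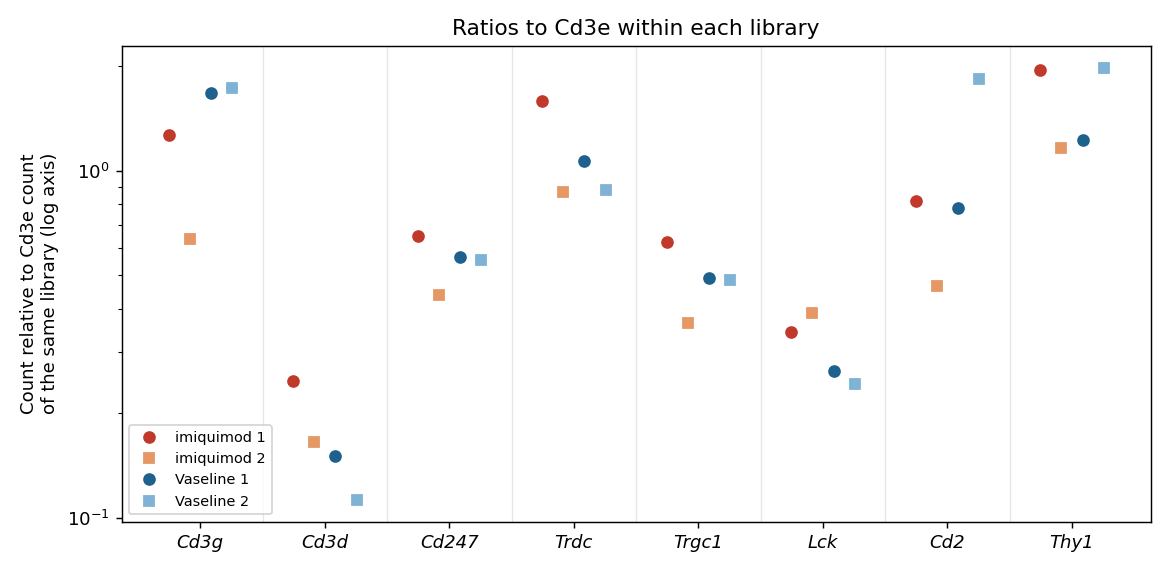
Count of each gene relative to the Cd3e count of the same library, on a log axis; each point is 1 library, and Trgc4 is left out for its low counts. Cd3g lies lower, and Cd3d and Lck lie higher, in both imiquimod libraries than in both Vaseline libraries; the counts still hold the background, and without it Cd3d overlaps.

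Lck, the kinase that phosphorylates the CD3 and zeta tails (ENSMUSG00000000409; chromosome 4, 129548344 to 129573641), had 7.59 and 11.0 CPM with imiquimod, against 12.03 and 9.84 CPM with Vaseline. The groups overlapped, and the log2 fold change was -0.21 (SE 0.59, edgeR adjusted p = 0.844). Relative to Cd3e, Lck counts were 0.343 and 0.388 with imiquimod, against 0.264 and 0.242 with Vaseline, so both imiquimod libraries were higher on this ratio. With the background subtracted it was 0.304 and 0.347 with imiquimod, against 0.247 and 0.235 with Vaseline.

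Cd2, an adhesion receptor that binds CD48 in mice (ENSMUSG00000027863; chromosome 3, 101275899 to 101287939), had the lowest fold change of the 10. It had 284 and 454 counts with imiquimod, against 1431 and 3391 with Vaseline, or 18.1 and 13.2 CPM, against 35.6 and 74.5 CPM. The groups did not overlap, but the gap in CPM between Vaseline 1 and 2 was wider than that between imiquimod 1 and Vaseline 1. The log2 fold change was -1.83 (SE 0.64); by edgeR the unadjusted p was 0.00457 and the adjusted p 0.224, and by DESeq2 the log2 fold change was -2.16 and the adjusted p 0.0291. Leaving out Vaseline 2 gave -1.21 by edgeR, and leaving out Vaseline 1 gave -2.37. Cd2 did not keep to the CD3 chains: it was 0.818 and 0.467 times Cd3e with imiquimod, against 0.782 and 1.83 times with Vaseline. As a share of the count of Ptprc, which all leukocytes express, Cd2 was 16.9% and 10.5% with imiquimod and 14.5% and 17.4% with Vaseline, and these overlap. The libraries fell in the same order for Cd2 as for Cd207, and B cells express Cd2 as well in mice. The part of other cells in the Cd2 values was not tested.

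Thy1, a surface glycoprotein that marks mouse T cells (ENSMUSG00000032011; chromosome 9, 44043384 to 44048579), had 43.3 and 32.9 CPM with imiquimod, against 56.0 and 80.5 CPM with Vaseline. Its log2 fold change was -0.85 (SE 0.65, edgeR adjusted p = 0.488), and the groups did not overlap. Fibroblasts and neurons express Thy1 too. The summed level of 10 fibroblast genes was 53.1 and 99.0 CPM with imiquimod, against 78.5 and 212 CPM with Vaseline. Of these genes 1 fell, the collagen gene Col3a1, at a log2 fold change of -2.53 (edgeR adjusted p = 0.0408), though its groups overlapped and limma-voom, upper-quartile factors and leaving out Vaseline 2 each ended the call. The median of the list was -0.89, and 0.049 without Vaseline 2. None of the 10 was at 0 in any library. Their median gene, however, stood at 1.42 and 1.83 times the background in imiquimod 1 and 2, against 1.75 and 15.7 in Vaseline 1 and 2. Vaseline 2 was highest in both Thy1 and the fibroblast sum, and the part of fibroblasts in Thy1 was not tested.

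Levels of the 10 genes can be compared with each other only per length, as CPM per exonic kilobase. Trgc1 had 14.9 and 11.2 CPM per kilobase with imiquimod, against 24.1 and 21.3 with Vaseline. Thy1 followed with 14.5 and 11.0 with imiquimod, against 18.7 and 26.9 with Vaseline. Cd2 had 10.4 and 7.59 with imiquimod, against 20.5 and 42.8 with Vaseline, and Cd3g had 8.58 and 5.51 with imiquimod, against 23.4 and 21.5 with Vaseline. Trgc1, Thy1, Cd2 and Cd3g overlapped each other in the Vaseline libraries and do not differ there beyond their spread. Trdc, with 9.09 and 6.36 against 12.6 and 9.27, overlapped Cd3e, with 5.42 and 6.95 against 11.2 and 9.95. Cd247, Lck and Cd3d, between 2.34 and 4.81 CPM per kilobase in each library, overlapped one another in the imiquimod libraries, while in the Vaseline libraries Cd247 was above Cd3d and Lck. Trgc4 was lowest, with 1.10 and 0.946 with imiquimod, against 2.00 and 1.56 with Vaseline.

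The signs of 5 genes depended on the scaling. On library totals alone, without TMM factors, 5 of the 10 log2 fold changes were positive and 5 negative, with a median of 0.022, while the median of all genes tested was 1.30. RLE factors, under which that median was 0.16, left all 10 negative, and upper-quartile factors (0.76) turned Cd3d and Lck positive. Another fit took the 14396 genes that averaged 5 or more times the background over the 4 libraries, which leaves out Trgc4. Cd3d, Cd247 and Lck reach that mean only through the Vaseline libraries, where the background was lowest, so no count of signs is drawn from it. In that fit Cd3e had 0.036 (SE 0.42), Trgc1 -0.079 (SE 0.37), Trdc 0.19 (SE 0.37) and Thy1 -0.056 (SE 0.26). Cd3g and Cd2 stayed negative there, at -0.97 (SE 0.32) and -0.99 (SE 0.32), with an edgeR adjusted p of 0.474 for both. On library totals the groups did not overlap in these 2 genes only, at 29.5 and 29.9 CPM with imiquimod against 73.1 and 42.1 CPM with Vaseline for Cd3g, and 19.1 and 21.9 against 34.1 and 44.6 CPM for Cd2. On that scale 7.42% of all genes tested were lower without overlap.

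**Figure D4:**
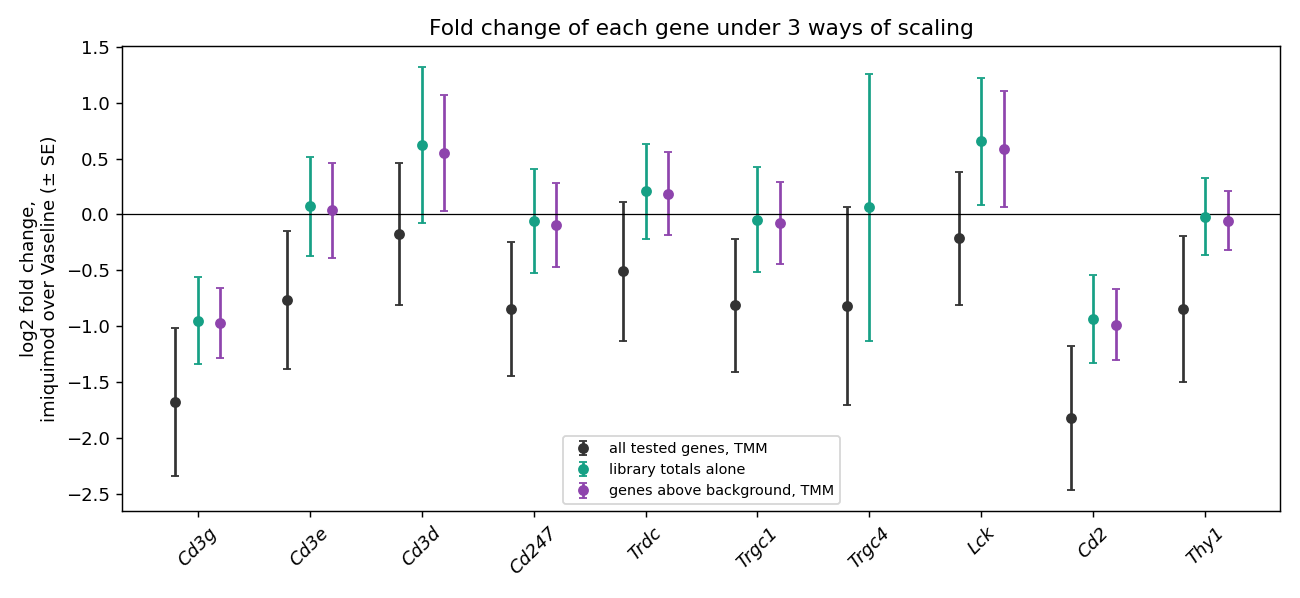
log2 fold change of imiquimod over Vaseline with its SE for each gene, from edgeR fits with TMM factors over all tested genes, on library totals alone, and with TMM factors over genes that averaged 5 or more times the background (Trgc4 is not in this fit). Cd3g and Cd2 are the 2 genes more than 1 SE below 0 in each of the 3 fits.

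The summed counts of the 10 genes were set beside genes of other cells in each library. These sums still hold the background, which was higher in CPM in the imiquimod libraries. Any counts of Thy1, Cd2 and Cd247 from other cells or overlapping genes are in them too. The sums came to 15.8% and 27.3% of the Cd207 count in imiquimod 1 and 2, against 14.7% and 5.24% in Vaseline 1 and 2. Relative to Ptprc they came to 177% and 124% with imiquimod, against 134% and 84.2% with Vaseline, and relative to Krt14 to 2.91% and 9.09%, against 5.97% and 4.80%. The share of Cd207 was higher in both imiquimod libraries, though imiquimod 1 and Vaseline 1 nearly met, and the shares of Ptprc and Krt14 overlapped. The Langerhans cell list, with 15 genes, had a median log2 fold change of -2.15, lower than the -0.82 of the 10 T cell genes, and edgeR called 0 of its genes, with 5 lower at an unadjusted p under 0.05. DESeq2 called 11 of the 15 lower.

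Other genes of T cell receptor signalling gave no call with edgeR, and 4 calls with DESeq2. Of 30 tested, 17 had negative and 13 positive log2 fold changes, with a median of -0.17 beside 0.41 over all genes, and at an unadjusted p under 0.05 edgeR had 1 higher and 3 lower. The 4 of smallest p were Fyn, an Src-family kinase related to Lck, at -1.93 (SE 0.71), Csk, which restrains both kinases, at -1.68 (SE 0.66), Sh2d1a, an adaptor, at 2.20 (SE 0.96), and Nfatc2, a transcription factor, at -1.51 (SE 0.69). Their edgeR adjusted p values were 0.248, 0.284, 0.322 and 0.336. Fyn, Csk and Nfatc2 are also expressed by myeloid cells. Sh2d1a rested on 44 and 49 counts with imiquimod, against 35 and 1 with Vaseline, lay below the background on average and shares exonic bases with Tenm1. DESeq2 gave adjusted p values of 0.0138 for Fyn, 0.0358 for Csk, 0.0390 for Ptprc and 0.0475 for Nfatc2, and so called these 4 lower. The median of the 30 turned to 0.70 on library totals.

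Genes that mark the state of dendritic epidermal T cells likewise passed in no case among 23 tested with edgeR (6 positive, 17 negative, median -0.63), and DESeq2 called 2 lower, Cd244a and Fcer1g. At an unadjusted p under 0.05 edgeR had 1 higher and 2 lower, and on library totals the median turned to 0.37. Cd244a, a receptor of NK and T cells, had 18.2 and 18.6 CPM with imiquimod, against 59.1 and 121 CPM with Vaseline, a log2 fold change of -2.29 (SE 0.69, edgeR adjusted p = 0.125) and a DESeq2 adjusted p of 0.00452. Fcer1g, a signalling chain also used by Langerhans cells, had -1.56 (SE 0.67), Fgf7, a keratinocyte growth factor, 1.72 (SE 0.79) and Runx3, a transcription factor that Langerhans cells share, -1.46 (SE 0.80). Gzma was at 0 in all 4 libraries.

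The IL-17 list had 20 genes tested, with 12 positive and 8 negative log2 fold changes, a median of 0.59 and no call with edgeR. Without adjustment, edgeR p under 0.05 was reached by 2 higher and 0 lower. Over all genes tested 60.6% were positive, the median was 0.41, and 8.63% were higher and 5.1% lower at that p. The share of positive values was thus near that of all genes. The list's median gene stood at 2.72 and 2.85 times the background in imiquimod 1 and 2, against 4.29 and 9.48 in Vaseline 1 and 2. The sign of that median rested on imiquimod 2: it was -0.084 without that library and 0.26 without imiquimod 1. DESeq2 called 1 lower, Il7r. Upper-quartile factors called 1 gene of the list higher, as did DESeq2 on genes above background. Zbtb16, which encodes the transcription factor PLZF, had 141 and 27.3 CPM with imiquimod, against 25.2 and 18.4 CPM with Vaseline, so that its log2 fold change of 1.94 (SE 0.67, edgeR adjusted p = 0.210) lay mostly in imiquimod 1. The cytokine gene Il22 had 26 and 63 counts with imiquimod, against 26 and 14 with Vaseline (1.90, SE 0.95), and the cytokine receptor gene Il7r had -1.75 (SE 0.90). Il17a, named after its values were seen, had 0 and 86 counts with imiquimod, against 21 and 49 with Vaseline, so the imiquimod libraries lay on either side of the Vaseline libraries.

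Lists of other lymphocytes and skin cells were read beside these. Over all genes tested 60.6% were positive, the median was 0.41, and at an unadjusted edgeR p under 0.05 8.63% were higher and 5.1% lower. Of 12 genes of alpha beta T cells, 8 were positive and 4 negative (median 0.40) with no call by edgeR or DESeq2 (without adjustment, edgeR p under 0.05 was reached by 2 higher and 1 lower), and among those of smallest p were Ctla4, an inhibitory receptor (3.39, SE 1.11), Cd4 (-1.52, SE 0.61), which Langerhans cells may also carry, and Icos (1.06, SE 0.64). Ctla4 had 11 and 84 counts with imiquimod, against 14 and 0 with Vaseline. NK and innate lymphoid genes had a median of 0.43 over 10 tested with no call by edgeR or DESeq2, and the 7 tested V and joining segments one of -0.084 with none. Among 8 B cell genes 1 fell, Ighm (-3.36, edgeR adjusted p = 0.00199). Of 10 neutrophil genes 2 rose, Mmp8 (3.45, edgeR adjusted p = 0.00120) and S100a8 (2.69, edgeR adjusted p = 0.0193), as did the histidine decarboxylase gene Hdc of the mast cell list (2.59, edgeR adjusted p = 0.0269). These 4 calls, like that of Col3a1, were lost in edgeR fits with RLE factors, on library totals, with no filter, among genes above background and with the replicate block. They were also lost with the older quasi-likelihood form, chosen after seeing the data. The planned DESeq2 fit called no neutrophil or mast cell gene higher, and called 1 B cell gene lower. DESeq2 on genes above background, added after seeing the data, called 2 neutrophil genes and 1 mast cell gene higher and 1 B cell gene lower. Medians of lists with no edgeR call were -0.47 for 12 keratinocyte genes, -0.13 for 10 monocyte and macrophage genes, 0.95 for 9 endothelial and neural genes and -1.28 for 11 genes of RNA and cell quality. The median endothelial and neural gene stood at only 1.45 and 1.71 times the background with imiquimod, against 1.94 and 3.01 with Vaseline. DESeq2 called 1 keratinocyte gene, 1 monocyte gene and 3 genes of RNA and cell quality lower.

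The genes whose levels ran most like the mean of the 10 over the 4 libraries were Iqcc, Kif24, Ado, Abcb10 and Itgb5, at distances of 0.030 to 0.091 between centred log2 CPM profiles, among 12043 genes compared. Among the 10 themselves, Cd247 lay nearest to that mean, at 0.084, then Trgc1 at 0.16, while Cd3g lay at 0.92 and Cd2 at 1.21. With 4 libraries such profiles hold few values, and a close match is a description only.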

How the data were processed

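RNA from isolated Langerhans cells was measured in 4 libraries, 2 per treatment. Per the labels' protocols, libraries came from a stranded SMARTer kit for small amounts of total RNA. The build GRCm38 and the tools HISAT2, StringTie, Trimmomatic and SAMtools are named per the submitters' processing notes. The deposited values are whole-number counts per Ensembl gene, with no scaling to depth. Versions, annotation release, strand setting and the handling of multi-mapped reads are not given in the sources used here.

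The genes and lists were chosen with earlier results of these data known. The 10 genes are all named, of each list the up to 4 members of smallest p and any called, and the 5 genes most like the 10 with mean CPM of at least 5. Of the other lists, those of cells outside the T lineage are given by their called genes and medians. Of 2 lists, 1 gene each that this rule names is not reported here. edgeR 4.0.16 in R 4.3.3 (TMM factors, filterByExpr with minimum count 10 and total 15, quasi-likelihood test, two-sided) tested 39439 genes at an adjusted p of 0.05; DESeq2 1.42.0 and limma 3.58.1 were alternatives. SE was taken as the absolute log2 fold change divided by the root of F. Exon unions and overlaps came from GENCODE M21, which held 55227 of the 55487 genes. Libraries of one treatment were compared for duplicates: chi-square divided by its degrees of freedom was 88.1 with imiquimod and 95.1 with Vaseline, so none was a duplicate. Plots were drawn with matplotlib 3.10.9 in Python 3.11.15.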

Additional observations from a re-analysis of the deposited data

How the results depend on the processing

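With edgeR, 25 genes were called higher and 54 lower with imiquimod. Upper-quartile factors gave 41 and 56, and RLE factors 17 and 14. The counts were 8 and 5 on library totals, 6 and 725 with DESeq2, 41 and 136 with limma-voom, 0 and 0 with no filter (3185 and 1996 at an unadjusted p under 0.05), 45 and 96 with a stricter filter (10 counts per library of a group and 50 in total), and 0 and 0 among genes above background (773 and 690 unadjusted). Settings chosen after seeing the data gave 3 and 5 (older quasi-likelihood form) and 108 and 158 (DESeq2 above background). Leaving out 1 library gave 8 to 2958 higher and 0 to 317 lower: dropping Vaseline 1 gave 2958 and 317, dropping Vaseline 2 gave 28 and 17, dropping imiquimod 1 gave 15 and 6, and dropping imiquimod 2 gave 8 and 0 (319 and 346 unadjusted). In none of these were any of the 10 genes called higher, and 2 were called lower with DESeq2 alone.

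The replicate numbers share only a number: with the replicate block 1 gene was higher and 0 lower (1858 and 397 unadjusted), and same-numbered libraries deviated from their group means with a correlation of -0.33. The crossed pairing, added after seeing the data, called 0 higher and 0 lower (3420 and 4880 unadjusted).

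Signs of genes without a call turned in the settings named below. They also turned with the background subtracted on library totals, which gave Cd3d 0.28, Trdc 0.097 and Lck 0.39 without a test. Cd3d and Lck reach the mean for the fits above background only through the Vaseline libraries, so turned signs are not counted. Cd3d had 0.15 with upper-quartile factors, 0.62 on library totals, 0.55 above background (0.51 by DESeq2) and 0.031 without Vaseline 1, where leaving out 1 library gave -0.46 to 0.031. Lck had 0.13 with upper-quartile factors, 0.65 on library totals and 0.59 above background (0.55 by DESeq2). Cd3e had 0.072 on totals, 0.036 above background and 0.00301 by DESeq2 there, Trdc had 0.21, 0.19 and 0.16 in the same settings, and Trgc4 had 0.063 on totals. The causes were not tested. Cd3g ranged from -2.10 to -0.95 and Cd2 from -2.37 to -0.94, and both were negative in all 19 alternatives. So were Trgc1 (-1.10 to -0.046) and Thy1 (-1.20 to -0.019). Cd247 ranged from -1.18 to -0.061. Its signs are not counted, since it too reaches the mean for the fits above background only through the Vaseline libraries. All alternatives use the same 4 libraries, so they are not independent of each other. Of the 19 alternatives, 2 had the background subtracted from the counts and were added after seeing the data. Of list medians 76 moved by more than the spread between replicates and 196 did not. Low counts, many near the background, limit Trgc4 and the V segments other than Trgv5 and Trdv4.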
